A study of Homo sapiens with 12 samples.

Results

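The genes examined are those that encode collagen chains: the rows of the deposited count table whose gene symbol has the form COL, a number, A and a number, with a mean of at least 10 raw counts over all 12 libraries. Of the 59653 rows of the table, 37 met this rule, and all 37 were among the 24671 genes that passed the filter on low counts and were tested. They comprise 11 fibrillar chains, 4 basement membrane chains (type IV) and 22 chains of other classes. COL6A3 lay just inside the limit with a mean of 14.58 counts per library and COL10A1 just outside it with 9.08. The other symbols below the limit were COL4A3, COL4A4, COL6A5, COL13A1, COL15A1 and COL22A1, with means of 0.5 to 4.75 counts.

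The libraries were made from total RNA of human neurons that were differentiated from induced pluripotent stem cells, themselves made from IMR-90, a fetal lung fibroblast line. Cells of the siNC group (6 libraries) received a negative control siRNA and cells of the siZCC group (6 libraries) an siRNA against ZCCHC17, which encodes a zinc-knuckle RNA-binding protein. All cells come from a single line, the time after transfection and the siRNA sequence are not given in the sources used here, and the sample titles also carry the letters NPC, which the labels do not explain. The labels do not say whether replicates were separate cultures, so p-values measure the spread between these libraries, which may be technical.

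Collagens are secreted proteins in which chains wind into a triple helix, from a single gene or from partner genes. Fibrillar collagens build the tensile fibrils of connective tissue, type IV chains form the sheet-like network of basement membranes, and other classes sit on fibrils, form beaded filaments or hexagonal nets, or span the plasma membrane. In neural tissue, type IV collagen is known from the basement membranes of vessels and of the pial surface, and several minor collagens are made by neurons and glia.

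Depth was 90755953 to 120023356 counts per library in siNC and 76115083 to 105389055 in siZCC. Collagen transcripts took 0.257 to 0.331% of counts in siNC (median 0.287%) and 0.244 to 0.303% in siZCC (median 0.2755%), so the groups overlapped. ZCCHC17 stood at 53.99 to 60.99 counts-per-million (CPM, scaled by TMM factors) in siNC and at 9.37 to 10.6 in siZCC, a log2 fold change of -2.51 (SE 0.0402, Benjamini-Hochberg adjusted p 3.52e-17, quasi-likelihood test of edgeR). Within each group, 3 libraries had the cytokine transcript IL1B at 5.23 to 16 CPM (siNC replicates 2, 3 and 6; siZCC replicates 1, 4 and 5) and the other 3 at 0.0223 to 0.1 CPM. Collagen levels were also uneven between libraries: siNC replicate 4 had the highest siNC value in 20 of the 37 genes and siZCC replicate 3 the highest siZCC value in 16, while siZCC replicate 5 had the lowest siZCC value in 12. Collagen calls that changed without a single library, or in either range of IL1B taken alone, are given with those values beside the gene.

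The promoter windows of COL4A5 and COL4A6 are shown first because these neighbouring, divergently transcribed genes encode partner chains whose transcript ratio differed between the groups. In RefSeq (GRCh38.p14), COL4A6 has 2 starts, 379 and 1415 bases from the COL4A5 start. Each line gives the bases before a start, outside annotated exons, 5′ to 3′ on the strand of the gene. Both strands were searched for the letters of the CCAAT box, marked in capitals in the 2 windows that face each other. The letters of the GC box, GGGCGG, were found once, in the last window, and are in capitals there. A match on the other strand appears as the reverse complement, and no motif overlaps another.
COL4A5, chrX:108439588-108439837, plus strand: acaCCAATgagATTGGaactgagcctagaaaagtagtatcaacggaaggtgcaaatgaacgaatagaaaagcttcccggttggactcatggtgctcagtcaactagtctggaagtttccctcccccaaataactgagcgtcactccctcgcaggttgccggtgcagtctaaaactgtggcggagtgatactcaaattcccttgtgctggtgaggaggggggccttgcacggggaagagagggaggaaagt
COL4A6, start nearer to COL4A5, chrX:108439498-108439708, minus strand: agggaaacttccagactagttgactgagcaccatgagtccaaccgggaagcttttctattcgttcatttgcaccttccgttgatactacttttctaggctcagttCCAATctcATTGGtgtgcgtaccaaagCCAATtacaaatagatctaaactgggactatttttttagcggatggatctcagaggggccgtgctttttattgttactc
COL4A6, start farther from COL4A5, chrX:108438431-108438672, minus strand: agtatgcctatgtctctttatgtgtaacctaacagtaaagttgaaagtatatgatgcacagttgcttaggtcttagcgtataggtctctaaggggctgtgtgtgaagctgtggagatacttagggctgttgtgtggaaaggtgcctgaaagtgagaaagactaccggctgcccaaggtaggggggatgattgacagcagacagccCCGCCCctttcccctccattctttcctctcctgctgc
The COL4A5 window and the nearer COL4A6 window share 121 bases, read from opposite strands, and both hold the paired CCAAT matches. CCAAT occurs in 32.0% of 35116 RefSeq promoter windows of 250 bases and in 28.9% of windows of 211 bases. GGGCGG occurs in 42.3% of windows of 242 bases. These comparison windows reach up to the start, while the COL4A6 windows shown leave out the bases nearest their starts, which lie in exons. The letters TATAAA were also searched for and are not in these 3 windows. The matches describe the sequence and are not binding data.

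Mean levels per kilobase of exon ran from 71.2 CPM for COL6A1 to 0.0074 CPM for COL6A3. COL6A1, a chain of the beaded filaments of type VI collagen, had the highest level per kilobase, 67.67 ± 2.89 CPM in siNC (SD, n = 6). The type IV chains COL4A1 and COL4A2 followed at 33.4 ± 2.60 and 29.5 ± 1.97, with overlapping ranges. COL26A1, COL6A2 and the fibrillar chain COL5A2 came next at 26.1 ± 2.88, 24.1 ± 1.63 and 23.0 ± 2.08 (SD, n = 6 each). The neighbours among these last 3 did not differ beyond their spread in siNC. The length used was that of all annotated exons of a gene merged, 5343 bases for COL6A1, 14738 for COL4A1 and 19293 for COL4A2. The order depends on this length. In CPM alone, COL4A2 and COL4A1 had means of 573.7 and 496.5 over the 12 libraries, above COL6A1 at 380.6.

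Of the genes at the low end, COL1A2 and COL6A3 were singled out, after their values were seen, because the partner chain is abundant. COL1A2, partner of COL1A1 in type I collagen, was at 0.0633 ± 0.0195 CPM per kilobase in siNC (SD, n = 6), against 12.99 ± 9.02 for COL1A1. The COL1A1 to COL1A2 ratio per kilobase had a median of 170 in siNC and 154 in siZCC. COL6A3, a chain of type VI collagen, was at 0.00777 ± 0.00316 and rested on a mean of 14.58 counts. The plot of levels shows this order with every library.

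**Figure D1:**
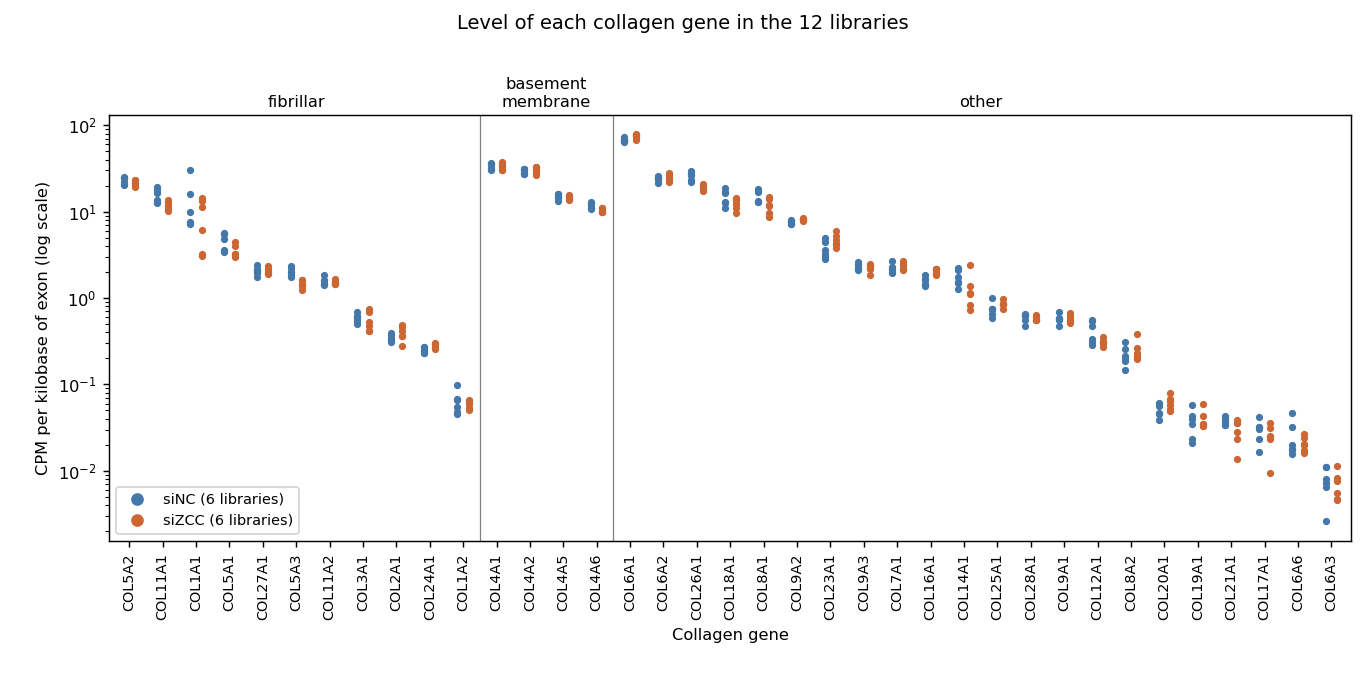
Level of each of the 37 collagen genes as CPM per kilobase of exon on a log axis, by class and by mean level, with 1 point per library (siNC and siZCC in different colours). COL6A1 and the type IV chains COL4A1 and COL4A2 lead, COL6A3 is lowest, and the siNC and siZCC points of most genes overlap.

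In the comparison of siZCC with siNC, which asks how loss of ZCCHC17 transcript goes along with collagen expression, 9 of the 37 genes passed an adjusted p of 0.05 in the quasi-likelihood test of edgeR, with Benjamini-Hochberg adjustment over all genes tested. This is 24.3% of the collagen genes, against 22.2% of all genes tested. COL16A1, COL23A1, COL6A1 and COL9A2 rose, where 11.4% of all genes did. COL26A1, COL5A3, COL11A1, COL8A1 and COL4A6 fell, where 10.8% of all genes did. The share of collagen genes called was thus near that of the whole table. With upper quartile scaling 2 collagen genes rose and 6 fell, and with offsets for GC content and transcript length 2 rose and 7 fell.

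The sizes were small. The median log2 fold change was -0.04 over the 37 genes and -0.0016 over all genes tested, and it was 0.0017 over the collagen genes without siNC replicate 4. The summed level of the collagen genes was 2572 to 3286 CPM in siNC (median 2858) and 2469 to 3046 CPM in siZCC (median 2770), ranges that overlapped. Groups did not overlap in 3 of the 37 genes, COL26A1, COL5A3 and COL16A1, against 9.74% of all genes tested. In bulk RNA, fewer cells that make a collagen and less transcript per cell cannot be told apart.

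**Figure D2:**
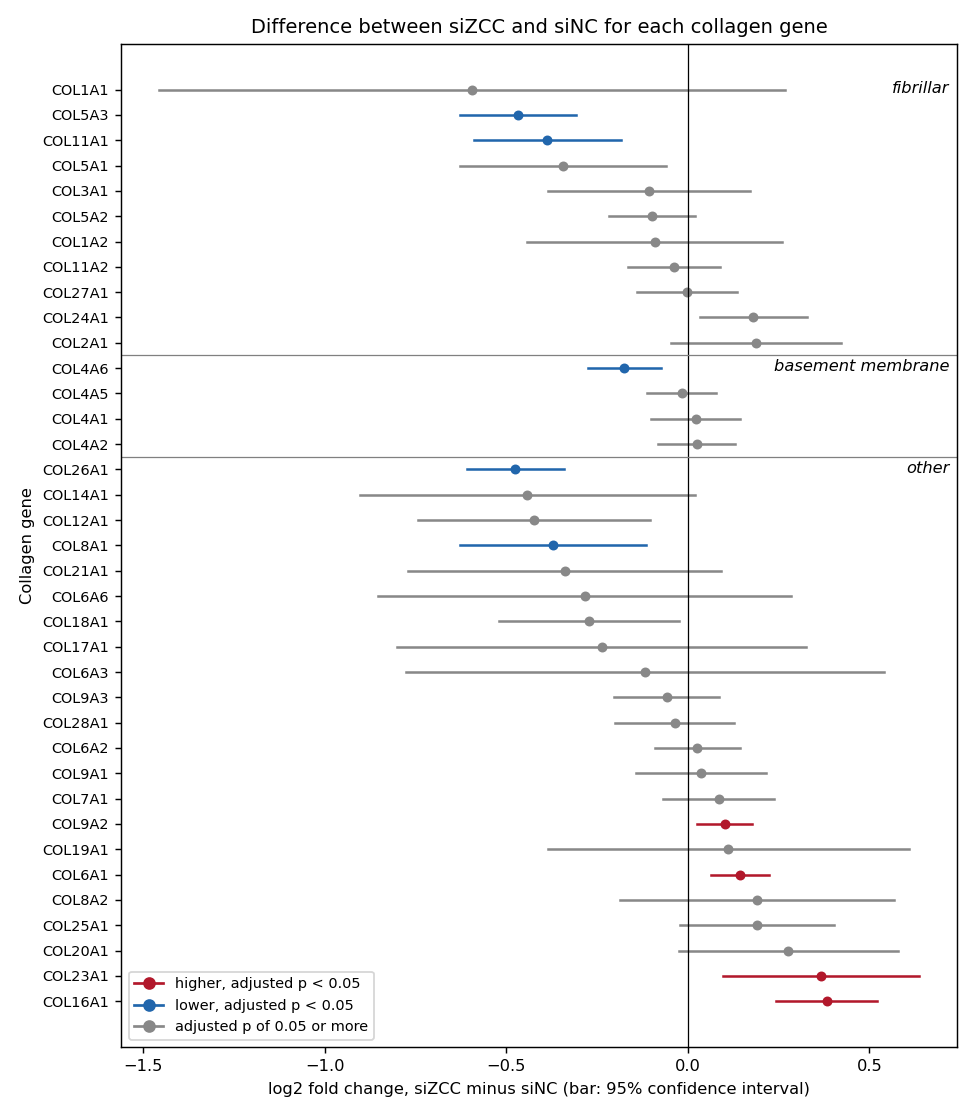
Log2 fold change (siZCC minus siNC) of each collagen gene with its 95% confidence interval, by class. Of the 11 fibrillar chains 9 lie below 0, beside 12422 of the 24671 genes tested, and 2 passed the test. Those below 0 include COL27A1 at -0.0013 and COL11A2 at -0.0393. COL16A1 and COL26A1 are the highest and lowest of the called genes, and COL1A1 has the widest interval, from -1.46 to 0.27.

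Among the 11 fibrillar chains, 2 fell, none rose and 9 did not pass, with a median log2 fold change of -0.10. The share called, 18.2%, is near the 22.2% of all genes tested. COL5A3 (chr19:9959561-10010471 in GENCODE v29, GRCh38), a chain of type V collagen, had 11.91 to 16.01 CPM in siNC (median 13.5) and 8.41 to 10.96 in siZCC (median 9.85). All siZCC libraries were below all siNC libraries. Its log2 fold change was -0.47 (SE 0.0758, adjusted p 0.000356, edgeR), and it passed in both ranges of IL1B taken alone. Of its exon bases, 4% overlap an antisense gene; the strand setting of the counting is not stated, so reads of the overlap cannot be assigned.

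COL11A1 (chr1:102876467-103108872), a minor fibrillar chain that helps set fibril width, had 116 to 173 CPM in siNC (median 136) and 91.56 to 123 in siZCC (median 107). The groups overlapped: 2 siZCC libraries lay within the siNC range. The log2 fold change was -0.39 (SE 0.0961, adjusted p 0.00807, edgeR). In the libraries with low IL1B alone it was -0.31 with an adjusted p of 0.0906, and in those with high IL1B -0.48 with 0.0427.

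The other fibrillar chains of type V did not pass. COL5A2, which co-assembles with COL5A1, had a log2 fold change of -0.10 (95% interval -0.22 to 0.02). COL5A1 had -0.34 (95% interval -0.63 to -0.06, adjusted p 0.0776, edgeR). Leaving out siNC replicate 2, 3 or 5 or siZCC replicate 3 brought COL5A1 under the threshold, with adjusted p of 0.0477, 0.0385, 0.0378 and 0.035. With all libraries it passed with offsets for GC content and length (adjusted p 0.0483), with the IL1B division as a block (0.0352) and with no filter on low counts (0.0261). COL5A1 was chosen for mention after its values were seen.

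COL1A1, the main chain of type I collagen, was the most variable collagen gene and was chosen for mention after its values were seen. It had 69.8 to 295.9 CPM in siNC (median 86.0) and 29.8 to 142.5 in siZCC (median 86.3). The siNC maximum was replicate 4 and the siZCC minima were replicates 4 and 5, and the medians nearly coincided. The log2 fold change of -0.59 (SE 0.408, 95% interval -1.46 to 0.27, adjusted p 0.329, edgeR) did not pass, and without siNC replicate 4 it was -0.15. The biological coefficient of variation of COL1A1 was 48.1%, at the 99.9 percentile of the 16365 genes averaging 1 CPM or more, where the median was 5.5%.

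Of the 4 type IV chains, 1 fell and 3 did not pass, a share of 25% beside the 22.2% of all genes. COL4A6 (chrX:108155607-108439497) had 99.5 to 121 CPM in siNC (median 106) and 91.1 to 102 in siZCC (median 94.98). Most siZCC libraries lay below the siNC range, and replicates 3 and 6 lay within it. Its log2 fold change was -0.18 (SE 0.0476, adjusted p 0.0138, edgeR). In the high and low IL1B libraries taken alone it was -0.19 and -0.17, with adjusted p of 0.0861 and 0.133.

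COL4A1 and COL4A2, the chains of the most widespread form of type IV collagen, share a divergent promoter, with RefSeq starts 126 bases apart. COL4A1 had 445 to 534 CPM in siNC (median 498) and 442 to 556 in siZCC (median 505). COL4A2 had 522 to 608 CPM in siNC (median 576) and 516 to 627 in siZCC (median 579). Their log2 fold changes were both 0.02, with 95% intervals of -0.10 to 0.14 and -0.08 to 0.13, and both turned to -0.02 and -0.05 with offsets for GC content and length. For COL4A5 (chrX:108439844-108697545) the log2 fold change was -0.02 (95% interval -0.11 to 0.08), with 158 to 191 CPM in siNC and 162 to 186 in siZCC.

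Of the 22 chains of other classes, 4 rose, 2 fell and 16 did not pass, with a median log2 fold change of -0.0049. The share called, 27.3%, is also near that of all genes. COL26A1 (chr7:101362820-101559024) had 70.1 to 94.1 CPM in siNC (median 83.5) and 54.3 to 64.99 in siZCC (median 58.7). All siZCC libraries were below all siNC libraries. Its log2 fold change was -0.47 (SE 0.0635, adjusted p 6.44e-05, edgeR), 72.0% of the control level. It passed in both ranges of IL1B taken alone, and it was the only collagen gene that passed a test against a minimum change of 1.2-fold (adjusted p 0.0321, edgeR's glmTreat).

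COL8A1 (chr3:99638475-99799226) encodes a short chain of the hexagonal networks found beneath vascular and corneal endothelium. It had 119.8 to 173 CPM in siNC (median 143) and 81.2 to 139 in siZCC (median 111), so the groups overlapped. The log2 fold change was -0.37 (SE 0.122, adjusted p 0.0358, edgeR). This call was lost when siNC replicate 1, 4 or 6 or siZCC replicate 1, 4, 5 or 6 was left out, where the adjusted p ran from 0.0577 to 0.0882 and the log2 fold change from -0.38 to -0.297. In the libraries with low IL1B the log2 fold change was -0.24 (adjusted p 0.259) and in those with high IL1B -0.54 (adjusted p 0.0224); the term for the difference between them was -0.30 (p 0.147, adjusted p 0.935).

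COL16A1 (chr1:31652247-31704319), a collagen of the fibril-associated class, had 12.9 to 16.9 CPM in siNC (median 14.3) and 17 to 20.3 in siZCC (median 19.1). The groups did not overlap, though the highest siNC value lay close to the lowest siZCC value. Its log2 fold change was 0.38 (SE 0.0661, adjusted p 0.000597, edgeR). In the libraries with low IL1B alone it was 0.29 with an adjusted p of 0.0891.

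COL6A1 (chr21:45981737-46005050) had 344 to 389.6 CPM in siNC (median 361) and 360.5 to 419 in siZCC (median 407). Of the siZCC libraries, all but replicate 2 lay above every siNC library, the lowest of them only just. The log2 fold change was 0.14 (SE 0.0376, adjusted p 0.0109, edgeR). It was 0.12 with an adjusted p of 0.27 in the libraries with low IL1B, and 0.10 with an adjusted p of 0.0392 with offsets for GC content and length. COL6A2, its partner chain, had a log2 fold change of 0.03 (95% interval -0.09 to 0.14), which was -0.03 with those offsets.

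COL23A1 (chr5:178237618-178590555), a transmembrane collagen, had 10.7 to 18.4 CPM in siNC (median 12.7) and 14.4 to 22.3 in siZCC (median 16.96), with overlap. Its log2 fold change was 0.37 (SE 0.128, adjusted p 0.0486, edgeR). COL9A2 (chr1:40300487-40317813), a chain of the fibril-associated type IX collagen, had 30.2 to 33.7 CPM in siNC (median 31.8) and 32.5 to 35.7 in siZCC (median 33.9), also with overlap. Its log2 fold change was 0.10 (SE 0.0355, adjusted p 0.0499, edgeR).

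Both calls lie at the threshold. Neither gene passed in the high or the low IL1B libraries alone: COL23A1 had log2 fold changes of 0.47 and 0.26 (adjusted p 0.0735 and 0.401) and COL9A2 of 0.09 and 0.11 (adjusted p 0.259 and 0.268). For COL23A1 the call was lost when siNC replicate 1, 3, 4 or 6 or siZCC replicate 1, 2, 4 or 5 was left out, with adjusted p of 0.0537 to 0.116. For COL9A2 it was lost when siNC replicate 1, 5 or 6 or siZCC replicate 1, 3, 4, 5 or 6 was left out, with adjusted p of 0.0578 to 0.11. With offsets for GC content and length the log2 fold changes were 0.32 and 0.06, with adjusted p of 0.0719 and 0.111. The transcripts of the 4 collagen genes that rose have a GC content of 62.8 to 66.0%. Of the 5 that fell, COL26A1 and COL5A3 have 64.2% each, COL4A6 54.6%, COL11A1 47.3% and COL8A1 46.8%.

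Several members missed the threshold in the test as described but passed without a single library or under another setting. COL12A1, a fibril-associated collagen, had a log2 fold change of -0.42 (adjusted p 0.0544, edgeR) and passed without siNC replicate 2, 3 or 5 (adjusted p 0.0135, 0.0402 and 0.0224), and, with all libraries, under GC and length offsets (0.0409), upper quartile scaling (0.049) and when low counts were not filtered (0.0216). COL14A1, of the same class, had -0.44 (adjusted p 0.163) and passed without siZCC replicate 3, its highest library, with -0.73 (adjusted p 0.00462). COL18A1, the source of endostatin, had -0.27 (adjusted p 0.110) and passed without siNC replicate 5 (adjusted p 0.0296) and with no filter on low counts (0.0485). COL25A1, a transmembrane collagen of neurons, had 0.19 (adjusted p 0.191) and passed without siNC replicate 5 (adjusted p 0.00934). These genes were chosen for mention after their values were seen, and 16.4% of the exon bases of COL18A1 overlap SLC19A1 on the other strand.

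For COL14A1 the values in both ranges of IL1B are set side by side. In the libraries with high IL1B it was at 13.0 to 15.2 CPM in siNC and 6.23 to 9.73 in siZCC, a log2 fold change of -0.85 (adjusted p 0.00506, edgeR). In those with low IL1B it was at 10.9 to 19.1 and 9.82 to 20.7 CPM, a log2 fold change of -0.18 (adjusted p 0.733). The term for the difference was -0.67 (SE 0.343, p 0.071, adjusted p 0.935, edgeR). No collagen gene and 0 of the 24671 genes passed for that term, with 1177 genes at an unadjusted p under 0.05, among them 1 collagen gene, COL3A1.

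**Figure D3:**
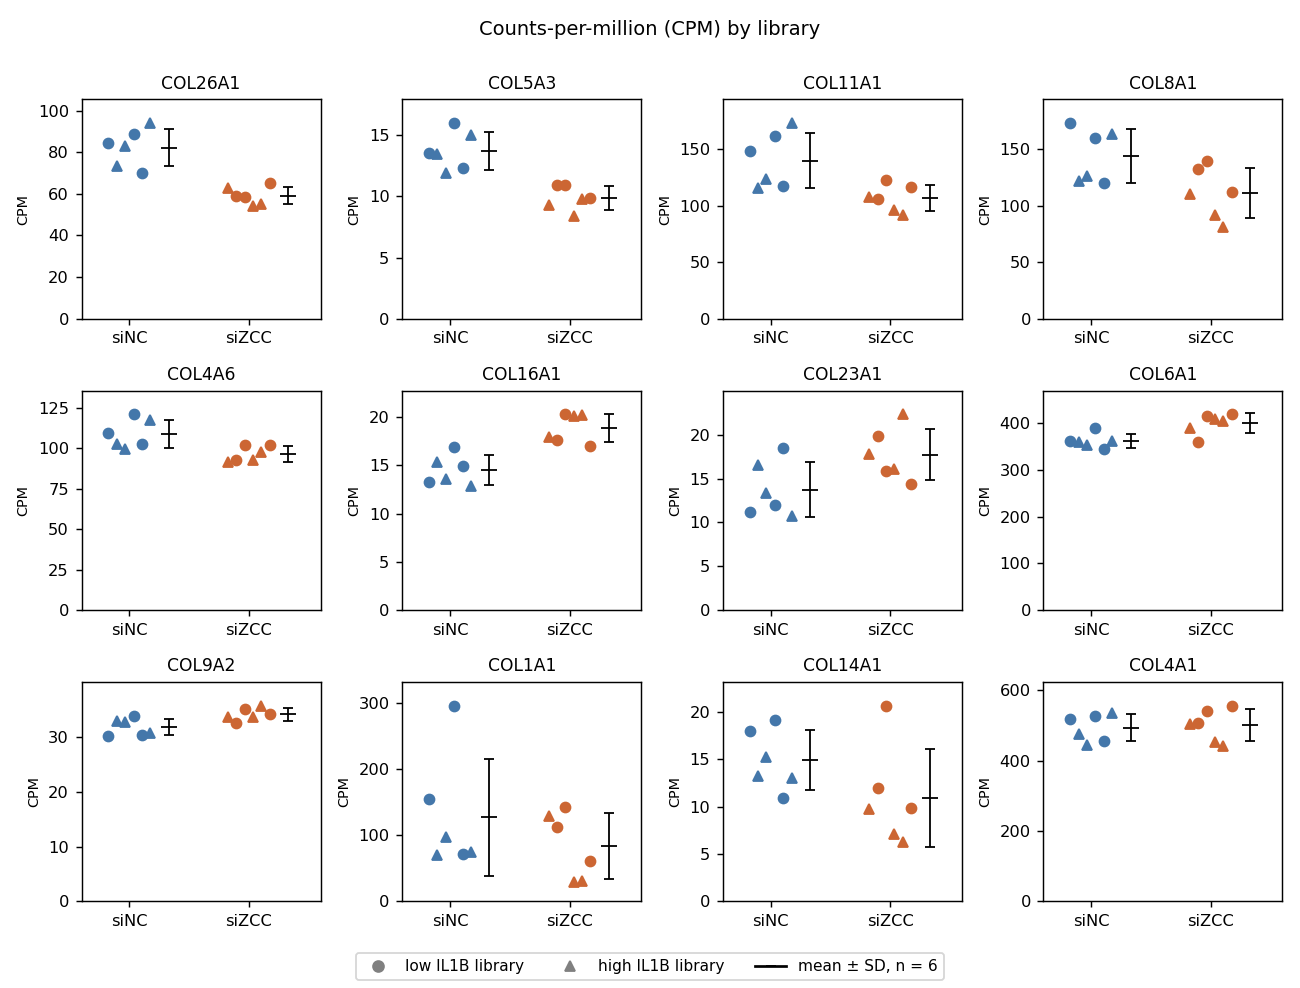
CPM in each library for the 9 called collagen genes and for COL1A1, COL14A1 and COL4A1, from 0, with the mean and SD of each group (n = 6) and the libraries with high IL1B as triangles. COL26A1, COL5A3 and COL16A1 show no overlap of the groups, and a single siNC library of COL1A1 reaches 295.9 CPM.

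Chains that share a trimer or a fibril were compared as count ratios within each library, which do not depend on library scaling. Of the 10 listed pairs, 9 had both chains above the count limit, and 2 differed between the groups in exact two-sided permutation tests over all assignments of the 12 libraries to 6 and 6, with Benjamini-Hochberg adjustment over the 9 pairs. The smallest p this design can give is 0.00216. COL4A5 to COL4A6, partner chains of a basement membrane network, had a count ratio of 1.55 to 1.70 in siNC (median 1.62) and of 1.72 to 1.93 in siZCC (median 1.80). All 6 siZCC libraries lay above all siNC libraries, with a difference in mean log2 ratio of 0.16 (exact permutation p 0.00216, adjusted p 0.0195). The COL4A6 level is part of that ratio, so its fall and the ratio are not separate evidence.

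Counts of COL8A1 exceeded those of COL8A2, its partner in the hexagonal network, 120 to 175 times in siNC (median 136) and 75.1 to 121 times in siZCC (median 103). Per kilobase of exon the medians were 67.5 and 51. Of the siZCC libraries, 5 lay below all siNC libraries. The difference in mean log2 ratio was -0.56 (exact permutation p 0.00433, adjusted p 0.0195). COL8A2 stood at only 0.683 to 1.44 CPM in siNC and 0.922 to 1.77 in siZCC, from 70 to 161 counts per library, and its own log2 fold change of 0.19 did not pass (adjusted p 0.494, edgeR). Leaving out any single library left both pairs past the threshold, with differences of 0.14 to 0.17 and of -0.63 to -0.49. The COL8A1 level is part of the COL8A1 to COL8A2 ratio, so its fall and the ratio are not separate evidence. The COL8A1 call itself held in 5 of the 12 fits without a single library.

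The remaining pairs did not pass. COL11A1 to COL11A2 differed by -0.34 (exact permutation p 0.0325, adjusted p 0.0828) and COL6A1 to COL6A2 by 0.12 (exact permutation p 0.0368, adjusted p 0.0828). COL4A1 to COL4A2 had the smallest difference, -0.0037 (exact permutation p 0.838), with count ratios of 0.838 to 0.880 in siNC and 0.828 to 0.890 in siZCC. COL1A1 to COL1A2 differed by -0.58 with a wide spread (exact permutation p 0.232, adjusted p 0.347).

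**Figure D4:**
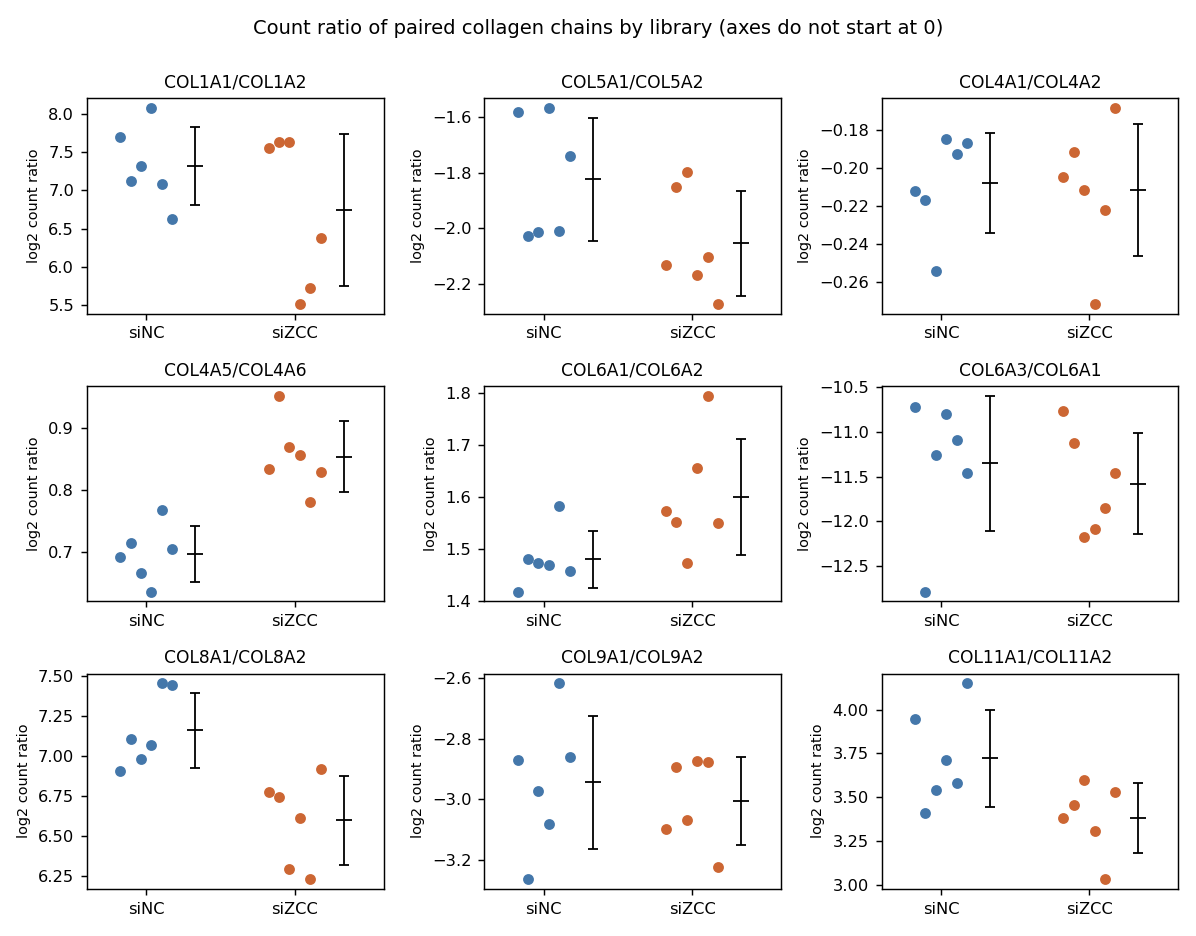
Log2 ratio of the counts of 2 partner chains in each library, for the 9 pairs with enough counts, with the mean and SD of each group (n = 6); the axes do not start at 0. COL4A5/COL4A6 lies higher in all 6 siZCC libraries, COL8A1/COL8A2 lies lower in 5 of 6, and COL4A1/COL4A2 overlaps.

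Of 28 genes that modify and fold collagen in the endoplasmic reticulum, 7 rose, 3 fell and 18 did not pass, with a median log2 fold change of 0.04. The share called was 35.7%, against 22.2% of all genes tested. COLGALT2, which adds galactose to hydroxylysine of collagen, had 78.4 to 86.0 CPM in siNC (median 82.2) and 56.7 to 64.2 in siZCC (median 62.1). It fell by 0.42 on the log2 scale (SE 0.0341, adjusted p 7.21e-07, edgeR). P3H4, part of a collagen-modifying complex, rose by 0.28 (SE 0.0344, adjusted p 2.61e-05), with 75.5 to 81.8 CPM in siNC (median 78.6) and 90.05 to 100.5 in siZCC (median 96.7). Neither gene's groups overlapped.

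Of 16 tested genes that process procollagen or cross-link fibrils, 1 rose, 2 fell and 13 did not pass (median -0.04). This is 18.8% called, beside 22.2% of all genes tested. The procollagen N-proteinase ADAMTS3 rose by 0.31 on the log2 scale (adjusted p 0.000742, edgeR), from 38.1 to 45.6 CPM in siNC to a range of 47.0 to 58.5 in siZCC. The lysyl oxidase LOXL2, which cross-links collagen, fell by 0.46 (adjusted p 0.00207), with 26.6 to 38.6 CPM in siNC and 19.3 to 26.6 in siZCC. The siNC and siZCC ranges of LOXL2 were adjacent. ADAMTS3 did not pass in the high IL1B libraries alone (0.25, adjusted p 0.0504), nor LOXL2 in the low ones (-0.35, adjusted p 0.0618).

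Among the 12 collagen receptors, 3 rose, 2 fell and 7 did not pass (median -0.0041), with 41.7% called beside 22.2% of all genes tested. ADGRG1, an adhesion receptor that binds type III collagen and is needed for cortical development, rose by 0.43 (SE 0.0461, adjusted p 8.72e-06, edgeR). It had 583 to 687 CPM in siNC (median 644) and 771 to 953 in siZCC (median 867), without overlap. MRC2, an endocytic receptor that takes up collagen, rose by 0.18 (adjusted p 0.000921).

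Of 14 tested proteases that degrade collagen and their inhibitors, 4 rose, 2 fell and 8 did not pass (median 0.02). Here 42.9% were called, beside 22.2% of all genes tested. TIMP3 and TIMP2, inhibitors of the matrix metalloproteinases, rose by 0.39 and 0.25 (adjusted p 5.66e-07 and 4.42e-06, edgeR). TIMP3 had 267 to 296 CPM in siNC and 349.9 to 379 in siZCC, and TIMP2 802 to 851 and 939 to 1002 CPM, both without overlap.

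Partners of type IV collagen in the basement membrane, such as laminins and nidogens, numbered 22. Of these 7 rose, 4 fell and 11 did not pass (median 0.03), a share called of 50%. SMOC1, a calcium-binding basement membrane protein, rose by 0.31 (adjusted p 4.73e-05, edgeR), and FRAS1, which joins epithelial basement membranes to the tissue beneath, rose by 0.34 (adjusted p 0.000825). In the list of matrix proteins that associate with fibrils, 4 of 22 tested genes rose, 8 fell and 10 did not pass (median -0.07). The share called there was 54.5%. TNXB, a large glycoprotein that binds fibrils, rose by 0.33 (adjusted p 0.000268) and the proteoglycan VCAN by 0.31 (adjusted p 0.00048), while the members that fell included fibrillins (FBN1 at -0.28, FBN2 at -0.33), chosen for mention after their values were seen. In the low IL1B libraries alone TNXB and VCAN did not pass (0.28 and 0.22, adjusted p 0.0562 and 0.0549). The shares called in the lists of collagen-related genes, 18.8 to 54.5%, compare with 22.2% of all genes tested.

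**Figure D5:**
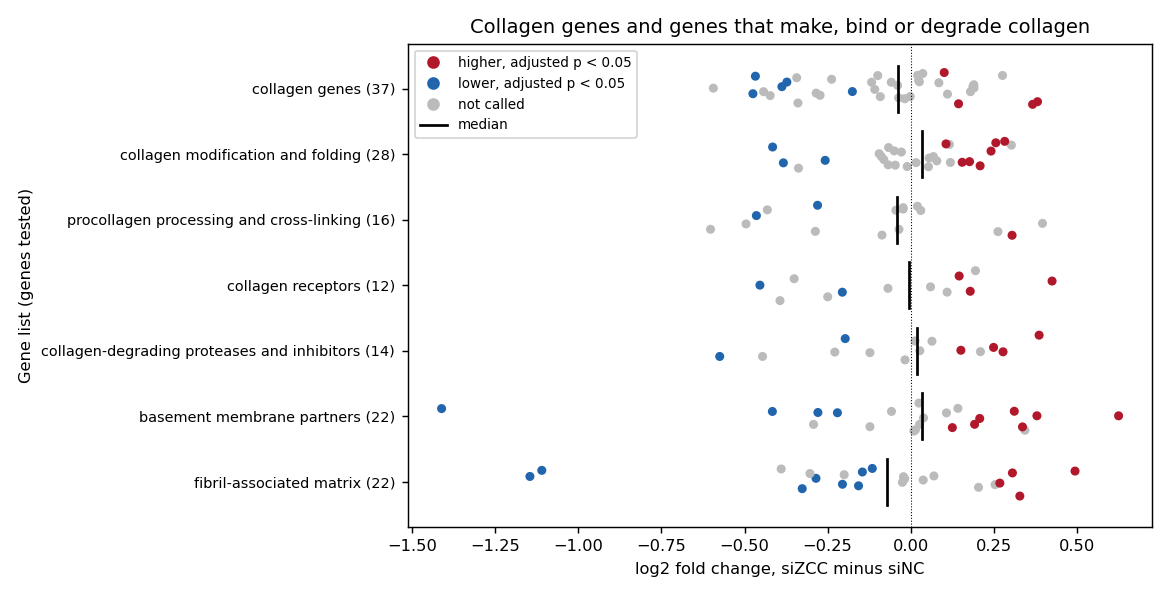
Log2 fold change (siZCC minus siNC) of each tested gene in the collagen genes and in 6 lists of genes that make, bind, accompany or degrade collagen, with the median of each list; coloured points passed an adjusted p of 0.05. All medians lie within 0.07 of 0, and every list holds both called rises and called falls.

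Marker transcripts describe which cells the libraries hold. The shares of tested markers called ran from 0% in the microglial list to 55.6% in the fibroblast and astrocyte lists, beside 22.2% of all genes tested (11.4% higher and 10.8% lower). Neuronal markers summed to 3404 to 3893 CPM in siNC and 3101 to 3575 in siZCC (1 of 12 rose and 5 fell, with MAP2 highest at a mean of 1030 CPM). Among these 12 markers TUBB3 was at 14.2 CPM and RBFOX3, the lowest, at 1.21 CPM, both chosen for mention after their values were seen. Progenitor markers summed to 6233 to 6649 and 6275 to 6823 CPM (3 of 10 rose, 1 fell; VIM highest at 3570 CPM), and astrocyte markers to 1650 to 1874 and 1720 to 2043 CPM (4 of 9 rose, 1 fell; GFAP highest at 634 CPM). The libraries thus carried progenitor and astrocyte transcripts beside those of the labelled neurons.

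Markers of cell types that make much collagen were present at lower levels. Fibroblast and mesenchymal markers summed to 172 to 188 CPM in siNC and 188 to 211 in siZCC, with 1 of 9 tested rising and 4 falling. PDGFRB was the highest at a mean of 97.5 CPM and rose by 0.42 (adjusted p 2.25e-05, edgeR), while TWIST2 and FAP were near 0 (under 0.1 CPM) and PDGFRA was at 0.322 CPM. Pericyte and smooth muscle markers summed to 702 to 885 CPM in siNC and 642 to 765 in siZCC (1 of 10 rose, 4 fell). NOTCH3, the highest at 378 CPM, was the 1 that rose (0.14, adjusted p 0.0163, edgeR). ACTA2 and TAGLN fell by 0.57 and 0.75 (adjusted p 0.000123 and 0.000254). CSPG4, KCNJ8 and DES had log2 fold changes of 0.096, 0.02 and 0.05 and did not pass. The genes of this list other than NOTCH3 were chosen for mention after their values were seen. The part of these markers in the collagen differences was not tested.

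Each of the other marker lists held members near 0 (under 0.1 CPM). Endothelial markers summed to 12.9 to 18.2 CPM in siNC and 9.13 to 11.2 in siZCC (none of 6 tested rose and 2 fell; TEK highest), with CDH5, FLT1, ERG and EMCN near 0. Microglial markers summed to at most 2.71 CPM and none of the 4 tested passed, with AIF1, CX3CR1, P2RY12 and TMEM119 near 0 and CSF1R highest at 1.04 CPM. Oligodendrocyte lineage markers summed to 408 to 456 CPM in siNC and 398 to 457 in siZCC (1 of 6 fell; CNP highest), with SOX10, MOG and MAG near 0. Neural crest and Schwann markers summed to 123 to 141 and 117 to 130 CPM (1 of 7 rose, 2 fell; PMP22 highest), with SOX10 and TFAP2B near 0, and cartilage markers to 230 to 254 and 239 to 270 CPM (1 of 6 rose, 1 fell; SOX9 highest at 240 CPM), with HAPLN1 near 0.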

How the data were processed

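The deposited table holds raw counts, whole numbers for every gene symbol in each of the 12 libraries. Per the labels, total RNA went into NEBNext Ultra II Directional libraries. The submitters' processing notes name bcl2fastq 2.17, STAR 2.7.6a, featureCounts 2.0.1 and the build GRCh38; the annotation, the strand setting and the treatment of multimapping reads are not given in the sources used here. Groups and replicate numbers came from the sample titles.

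The counts were tested unchanged with edgeR 4.0.16 (R 4.3.3): filterByExpr defaults, TMM factors and the quasi-likelihood test on all 12 libraries, with Benjamini-Hochberg adjustment over the 24671 genes tested and a threshold of 0.05. The fit was tested on simulated data. CPM are TMM-scaled. Values per kilobase use the merged length of all exons of a gene in GENCODE v29 (92.2% of symbols found, 37 of the collagen genes). Promoter sequences are from RefSeq (GRCh38.p14), which had entries for 27 collagen genes.

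The text names collagen genes that passed at a mean of at least 1 CPM, the 6 with the highest level per length and the chains of pairs that passed, with others, such as COL1A1, COL5A1 and further partner chains, chosen after their values were seen; in each pathway list the 2 smallest p-values at 1 CPM or more; and in each marker list the highest gene and those under 0.1 CPM. Members and lists were chosen with earlier results of these data known. Alternatives were other scalings, filters and tests (DESeq2 1.42.0, limma 3.58.1 voom), a replicate block, thinning, GC and length offsets, a division of the libraries by IL1B, a 1.2-fold minimum and leaving out each library; the interaction term with IL1B was added after seeing the data.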

Additional observations from a re-analysis of the deposited data

Results flagged for a closer look

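Of 74 sets of 6 values of one group that were examined for a library far from the rest, 2 held one, where 3.7 are expected by chance. The log2 CPM of TIMP2 was 9.876 in siZCC replicate 5, below the other siZCC libraries at 9.942 to 9.968; that library still lay above every siNC library. The log2 ratio of COL6A3 to COL6A1 was -12.79 in siNC replicate 2, below the other siNC libraries at -11.45 to -10.72; COL6A3 rested on 6 counts there.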

How the results depend on the processing

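Whether the spread between libraries limits the collagen calls was not tested. With every library thinned to the smallest total, COL23A1 was no longer called (adjusted p 0.0548, edgeR) and the other called collagen genes still passed. Whether greater depth would add calls was not tested. COL6A3 and the other members under 1 CPM rest on few counts, with means of 14.58 to 67.83 per library. The number of genes called, 5481, was 2043 in the libraries with high IL1B alone, 1602 in those with low IL1B, which each hold 3 libraries per group, and 349 against a 1.2-fold minimum. The 9 called collagen genes were 2 with low IL1B and 1 at 1.2-fold. Fibrillar chains called, 2, were 1 and 0 under these settings. Type IV chains called, 1, were 0 in high IL1B, low IL1B and at 1.2-fold. Chains of other classes called, 6, were 1 and 1, and ranged from 3 to 8 over single libraries left out, with 3 when siNC replicate 1 or 6 or siZCC replicate 1, 4 or 5 was left out. Over single libraries left out, collagen genes called ranged from 6 to 12, fibrillar chains from 2 to 3 and all genes from 4484 to 5626.

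COL26A1 and COL5A3 passed under all 12 alternatives other than the 1.2-fold minimum and without any single library. Among these alternatives COL16A1, COL11A1 and COL6A1 passed in 11, COL4A6 and COL8A1 in 10, COL23A1 in 5 and COL9A2 in 4; leaving out single libraries lost none of the calls of COL16A1, COL11A1, COL6A1 and COL4A6. Among the genes named by the rule stated above, the direction turned only for 4 near 0. COL4A1 was at -0.0201 with GC and length offsets and -0.0629 in high IL1B, and from -0.0155 to 0.0542 over single libraries left out. COL4A2 was at -0.0507, -0.0483 and -0.0042 to 0.055, and COL6A2 at -0.0295, -0.0415 and -0.0153 to 0.0592 in the same order. COL4A5 was at 0.0182 in low IL1B and from -0.0466 to 0.008 over single libraries left out. Genes named outside that rule also turned. COL6A3, at -0.1174 with all libraries, was at 0.4097 in high IL1B. COL3A1, at -0.108, was at 0.0547 in low IL1B. Without siNC replicate 4, COL1A2 went from -0.0913 to 0.0639 and COL11A2 from -0.0393 to 0.0102. The cause of these changes was not tested.

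Libraries that share a replicate number did not deviate together from their group means (correlations of -0.077 to 0.018), so the numbers were not taken as pairs. With the replicate block, 4902 genes and 10 collagen genes passed, 3 higher and 7 lower: COL12A1 and COL14A1 came in (adjusted p 0.0453 and 0.0462), COL9A2 went out (0.0826) and COL23A1 was at 0.000371. Within replicate numbers 0 chain pairs passed. The smallest p of that exact test, 0.0312, was reached by COL4A5/COL4A6 (0.16), COL8A1/COL8A2 (-0.56) and COL6A1/COL6A2 (0.12). It became 0.0938 on adjustment over the 9 pairs, so the test says nothing of whether these differences hold.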
